A study of Mus musculus with 20 samples.

Results

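AP-1 genes and immediate early genes were followed across cultured cells of 8 mouse embryos, 5 of them lacking E2F4. The set was a list of 10 named genes, Fos, Fosb, Jun, Junb, Jund, Egr1, Ier2, Atf3, Zfp36 and Nr4a1, and each was taken with every probe set (the group of array probes that measures 1 transcript) that carried its symbol alone. It held 11 of the 22690 probe sets and 10 of the 12393 genes on the array, and Jun alone had 2 probe sets. The cells were embryonic fibroblasts, the spindle-shaped cells of connective tissue, in primary culture from mouse embryos at 13.5 days post coitum. There were 10 cultures of 5 E2F4 null embryos, with 2 cultures each, and 10 cultures of 3 wild type embryos, with 3, 3 and 4 cultures. Each culture gave total RNA for 1 single-colour Affymetrix array. E2F4 is a transcription factor that holds cell cycle promoters repressed together with pocket proteins, and the arrays were made to compare cells without it with wild type cells. The labels describe neither the E2f4 allele nor the strain, sex, litter, passage, serum state or harvest time of any culture, and they name no treatment. Cells of several types can be present in such a culture, and fewer cells of a type and less RNA per cell cannot be told apart.

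Immediate early genes are switched on within minutes when a growth factor, serum, a stress or a mechanical signal reaches a cell, and they need no new protein for it. Mitogen-activated protein (MAP) kinases carry the signal to serum response factor with its ternary complex partners, and to CREB, which sit ready on these promoters. Their products include AP-1, a pair of basic leucine zipper proteins of the Fos and Jun families, and Egr1, which then act on slower target genes. The transcripts are short-lived, and in fibroblasts their level follows how recently the cells were fed or stimulated.

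Promoters are shown for Fos and for Junb, Nr4a1 and Zfp36, because these ranked the embryos differently, as described below. The RefSeq promoter table of build GRCm38.p6 (250 bases before to 50 bases after each start) held 8 of the 10 genes, all but Egr1 and Ier2. The 4 shown are on the gene's strand, 5′ to 3′, with matched motifs in capitals. They lie at chr12:85473640-85473939 (plus strand) for Fos, chr8:84978699-84978998 (minus strand) for Junb, chr15:101266596-101266895 (plus strand) for Nr4a1 and chr7:28379179-28379478 (minus strand) for Zfp36.
Fos: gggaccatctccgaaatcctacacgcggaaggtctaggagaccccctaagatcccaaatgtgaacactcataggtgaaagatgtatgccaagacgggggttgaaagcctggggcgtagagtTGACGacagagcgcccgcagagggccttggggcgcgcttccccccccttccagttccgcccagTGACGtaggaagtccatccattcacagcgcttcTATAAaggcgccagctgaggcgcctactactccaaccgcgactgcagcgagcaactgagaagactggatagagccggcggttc
Junb: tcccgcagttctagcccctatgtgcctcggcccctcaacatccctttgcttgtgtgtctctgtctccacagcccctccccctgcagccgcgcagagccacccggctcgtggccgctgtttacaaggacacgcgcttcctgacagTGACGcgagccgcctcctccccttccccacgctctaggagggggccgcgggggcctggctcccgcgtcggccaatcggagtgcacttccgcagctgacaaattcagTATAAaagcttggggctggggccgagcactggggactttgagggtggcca
Nr4a1: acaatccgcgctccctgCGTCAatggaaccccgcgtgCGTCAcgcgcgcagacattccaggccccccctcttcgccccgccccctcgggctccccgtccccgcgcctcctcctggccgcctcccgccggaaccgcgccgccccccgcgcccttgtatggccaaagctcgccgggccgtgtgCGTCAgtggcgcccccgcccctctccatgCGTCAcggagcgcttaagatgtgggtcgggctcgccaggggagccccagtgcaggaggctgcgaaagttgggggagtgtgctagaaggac
Zfp36: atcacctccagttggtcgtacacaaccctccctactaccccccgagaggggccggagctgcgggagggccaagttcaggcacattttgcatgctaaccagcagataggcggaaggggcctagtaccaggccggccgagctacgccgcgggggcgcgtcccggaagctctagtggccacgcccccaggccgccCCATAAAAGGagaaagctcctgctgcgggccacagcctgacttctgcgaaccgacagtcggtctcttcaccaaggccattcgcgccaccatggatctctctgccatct

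The motif searched for CREB and its relatives was TGACG, the core of the cAMP response element, on either strand. Fos held it at -129 and at -66 from its start, and Junb at -106. Nr4a1 held it 4 times on the opposite strand, at -233, -213, -69 and -40, where it reads CGTCA. It was also in the Fosb and Atf3 promoters, so in 5 of 8, against 20.8% of the 32851 promoters in the table. The full element TGACGTCA, which contains the core, was in 0 of 8 and in 1.79% of all promoters, and the AP-1 site TGACTCA in 0 of 8 and in 5.2%, both searched on either strand. Zfp36 alone of the 8 held a CArG box, the site of serum response factor, at -58, a motif found in 1.63% of promoters (it reads alike on either strand). The TATA motif TATAA, searched on the gene's strand only, was in Fos at -33 and in Junb at 1, and in 17.5% of promoters. An E2F core, TTCCCGC on either strand, was in Fosb alone of the 8 (4.6% of promoters). These matches are letters in a fixed window, not measured binding. A site further from the start would be missed, so absence here does not mean that a gene lacks the motif.

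Array quality was even. The 2% trimmed mean signal was 499.9 to 500.0 on every array and the median 134.8 to 145.6, so the arrays had been scaled to 1 mean before deposit. Cultures of 1 embryo correlated across probe sets at r = 0.985 to 0.99 and cultures of different embryos at 0.972 to 0.989. Wild type embryo 2 stood furthest from the rest, with a median r of 0.9845 between its mean and the other 7 embryo means, against 0.987 to 0.9917 for the others. Signals are intensities in MAS5 units and are compared only within a probe set. E2f4, the targeted gene, had 166.1 ± 17.6 in null embryos (SD, n = 5) and 214.1 ± 6.5 in wild type embryos (SD, n = 3), without overlap of the embryo means. Its log2 difference of -0.35 (SE 0.10) had a limma adjusted p = 0.363, and since the deleted part of the gene is not stated, a probe set outside that part would check nothing.

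Fos and Egr1, the genes most used as readouts of fresh stimulation, differed most among the wild type embryos. Embryo means of Fos, the inducible partner in AP-1, were 256.4, 266.4, 299.7, 285.2 and 337.0 in null embryos 1 to 5, against 692.9, 219.5 and 513.6 in wild type embryos 1 to 3. Those of Egr1, a zinc finger factor, were 2228.3, 1775.9, 2089.1, 2149.2 and 2483.0 in null embryos and 4673.0, 1310.7 and 5217.1 in wild type embryos. For both genes wild type embryos 1 and 3 were above every null embryo and wild type embryo 2 was below every null embryo. The cultures of each embryo kept close for Egr1: single cultures ran from 1769.1 to 2579.2 over the 10 null cultures, while wild type cultures ran from 4614.8 to 4738.3 in embryo 1, 1217.5 to 1405.5 in embryo 2 and 4768.6 to 5439.9 in embryo 3. Fos cultures were less even, and in wild type embryo 3 they read 621.4, 529.0, 544.0 and 360.0, the lowest of which was still above the highest null culture, 337.7.

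**Figure D1:**
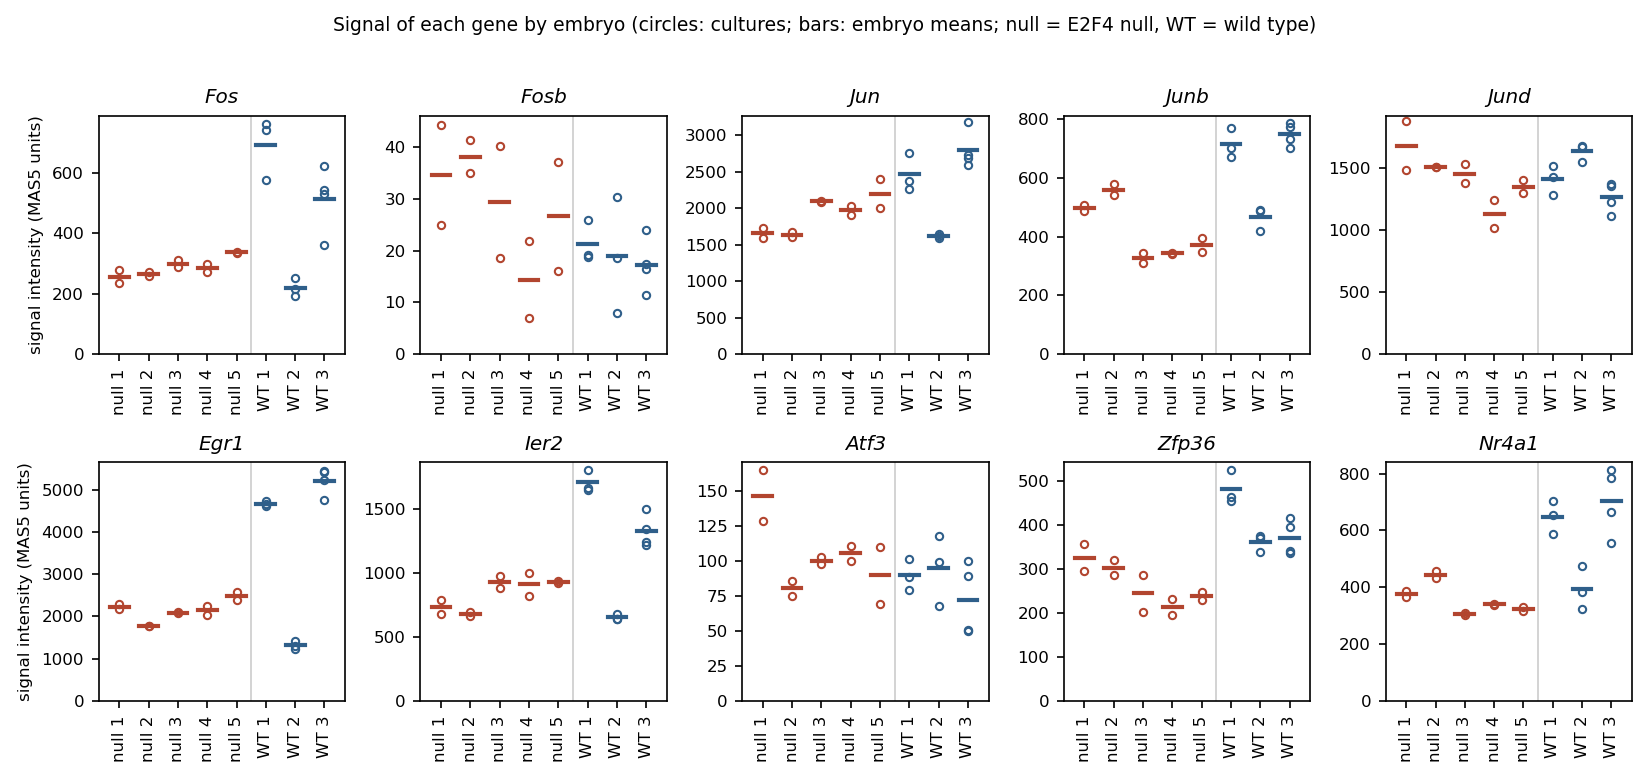
Signal intensity in MAS5 units (vertical axis, linear, from 0, scaled per gene) of the 10 genes in E2F4 null embryos 1 to 5 (red, left) and wild type embryos 1 to 3 (blue, right). Circles are cultures and bars are embryo means. For Egr1, wild type embryos 1 and 3 sit at 4673.0 and 5217.1 with the null embryos between 1775.9 and 2483.0 and wild type embryo 2 at 1310.7.

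Ier2 and Jun also had wild type embryos 1 and 3 above and wild type embryo 2 below every null embryo, with smaller steps. The order among the null embryos differed between the genes. Ier2, a short nuclear protein encoded by a fast serum response gene, had 733.6, 677.5, 927.7, 908.1 and 924.9 in null embryos, against 1705.0, 651.9 and 1324.3 in wild type embryos. Jun, the DNA-binding AP-1 partner that also pairs with itself, had 1654.8, 1634.4, 2093.8, 1967.2 and 2197.1 in null embryos, against 2463.6, 1620.4 and 2798.9 in wild type embryos. In both genes null embryos 1 and 2 lay close to wild type embryo 2, at the low end, and null embryos 3, 4 and 5 formed a middle group. The second Jun probe set had 849.5, 778.6, 906.5, 859.9 and 1003.7 in null embryos and 974.7, 773.3 and 1110.7 in wild type embryos. By that probe set null embryo 5 was above wild type embryo 1, so wild type embryo 3 alone was above all null embryos.

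Junb, Nr4a1 and Zfp36 had the same 2 high wild type embryos in their means but another order among the rest. Junb, an AP-1 partner that often restrains Jun, had 497.1, 559.6, 326.8, 342.5 and 371.4 in null embryos, against 713.3, 464.8 and 747.8 in wild type embryos. Nr4a1, an orphan nuclear receptor, had 375.7, 444.1, 304.4, 340.2 and 324.0 in null embryos and 648.4, 392.7 and 704.8 in wild type embryos. Here null embryos 1 and 2, low for Ier2 and Jun, were the highest of the null embryos, and wild type embryo 2 lay among the null embryos. Zfp36, which binds AU-rich elements and speeds the decay of cytokine and immediate early transcripts, had 325.7, 302.8, 244.1, 214.0 and 238.2 in null embryos and 481.2, 360.6 and 371.1 in wild type embryos. Wild type embryos 2 and 3 overlapped in their cultures of Zfp36. It was the only one of the 10 genes whose groups of embryo means did not overlap, though single cultures did, since 1 culture of null embryo 1 had 355.9 and the lowest wild type culture had 335.3.

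Jund, Atf3 and Fosb did not separate wild type embryos 1 and 3 from the rest. Jund, the constitutively expressed Jun family member, had 1676.3, 1502.4, 1451.5, 1123.3 and 1346.0 in null embryos and 1404.7, 1629.2 and 1261.9 in wild type embryos. Atf3, a stress-induced partner of Jun that acts mainly as a repressor, had 146.4, 80.1, 100, 105.3 and 89.5 in null embryos and 89.6, 94.7 and 72.2 in wild type embryos. Both groups overlapped throughout, and Atf3 in null embryo 1 was the highest of the 8. Fosb, the Fos family member prominent in neurons, had 34.6, 38.1, 29.4, 14.4 and 26.6 in null embryos and 21.3, 19.0 and 17.3 in wild type embryos. These are near the 20th percentile of all signals on the arrays, 15.7, and no detection calls were used here, so it is not known whether they exceed background.

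Between genotypes, none of the 9 genes that passed the filter on low signal was called. Of all 7436 genes tested with limma on embryo means, 0.0134% were called at an adjusted p under 0.05, and this was 1 gene, Tmem223. Without adjustment 647 genes had p under 0.05, and Junb, Nr4a1 and Zfp36 were the 3 members among them. Below 0 (lower in null embryos) were 8 of the 9 members, with a median log2 difference of -0.539, while over all genes 51% were below 0 and the median was -0.003. Zfp36 averaged 264.9 ± 47.1 in null embryos and 404.3 ± 66.8 in wild type embryos (SD, n = 5 and 3), a log2 difference of -0.59 (SE 0.15, 95% interval -0.93 to -0.25, adjusted p = 0.360). Over all genes 3.71% had null embryo means that were all below the wild type means, as the 1 member Zfp36 had. Nr4a1 averaged 357.7 ± 54.9 and 582.0 ± 166.3 in null and wild type embryos, a difference of -0.64 (SE 0.19, 95% interval -1.07 to -0.20, adjusted p = 0.395).

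For Junb the averages were 419.5 ± 103.0 in null embryos and 641.9 ± 154.4 in wild type embryos, with a log2 difference of -0.60 (SE 0.21, 95% interval -1.08 to -0.12, adjusted p = 0.456). Egr1 averaged 2145.1 ± 255.2 in null embryos and 3733.6 ± 2115.9 in wild type embryos, and its difference of -0.57 (95% interval -1.45 to 0.31, adjusted p = 0.713) was within the spread of the 3 wild type embryos. The same held for Fos at -0.54 (SE 0.30, adjusted p = 0.667), Ier2 at -0.45 (SE 0.27, adjusted p = 0.686) and Jun at -0.23 (SE 0.17, adjusted p = 0.731). Jun's second probe set gave -0.10 (SE 0.12). Jund was at -0.02 (SE 0.13, adjusted p = 0.980) and its sign turned with the scaling, as given in the closing section. Atf3, at 0.25 (SE 0.18, adjusted p = 0.725), was the only tested member above 0, and leaving out null embryo 1 gave 0.13 and wild type embryo 3 gave 0.14. Fosb, dropped by the filter, read 0.31 (SE 0.19, adjusted p = 0.802) in a fit of all 20380 probe sets, which called 0 probe sets.

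The size of these differences depended on wild type embryo 2. For 7 members (Fos, Jun, Junb, Egr1, Ier2, Zfp36 and Nr4a1) all 5 null embryos were below both wild type embryo 1 and wild type embryo 3, which held for 10.3% of all genes tested. These 2 embryos were set apart after the members' values were seen, so the share is a description and not a test. Leaving out wild type embryo 2, the Egr1 difference became -1.20 (SE 0.12) with an adjusted p = 0.0137, and 11 genes were called in all. That fit removes the embryo lowest for Egr1, so its p-value is no support for a genotype difference. No other member passed: Fos was at -0.996 (adjusted p = 0.0551), Nr4a1 at -0.89 (0.0698), Ier2 at -0.85 (0.123), Junb at -0.81 (0.242), Zfp36 at -0.66 (0.245) and Jun at -0.46 (0.276). Zfp36 moved least of these, and it was the only gene in which wild type embryo 2 was above every null embryo. Leaving out wild type embryo 1 instead gave -0.20 for Fos and -0.17 for Ier2, and leaving out wild type embryo 3 gave -0.21 for Egr1 and -0.07 for Jun, so these differences rested on wild type embryos 1 and 3.

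**Figure D2:**
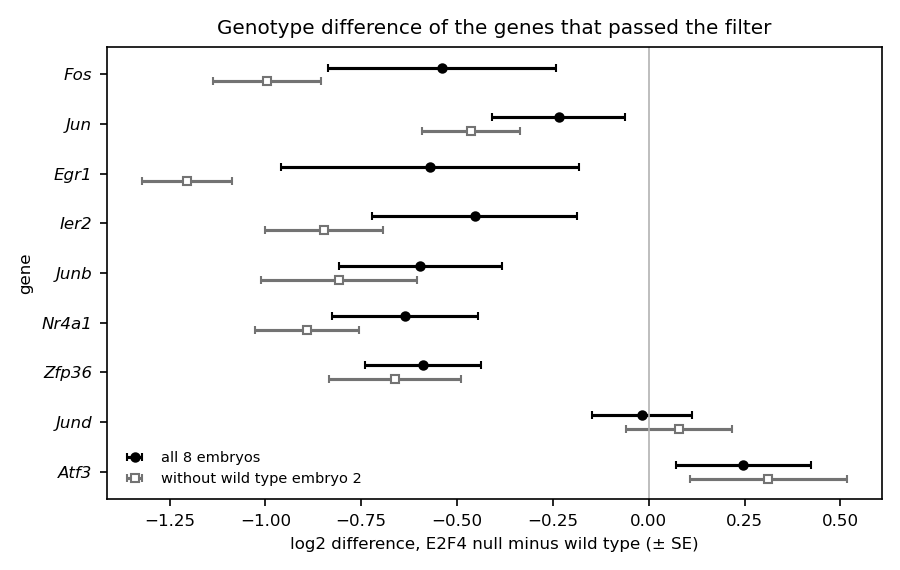
Log2 difference, E2F4 null minus wild type, of the 9 genes that passed the filter (rows), as the limma estimate with its SE. Black circles are all 8 embryos and open squares leave out wild type embryo 2. Egr1 goes to -1.20 without that embryo, and Zfp36, Jund and Atf3 shift least.

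Within a genotype, the question was whether embryos differed by more than the cultures of 1 embryo did. Among null embryos 6 of 9 members were called by limma's F test, where 22.9% of all genes were. Junb had the smallest adjusted p, 0.000476, followed by Egr1 (0.00444), Jun (0.00764), Nr4a1 (0.0128), Ier2 (0.0151) and Jund (0.0251), while Fos (0.148), Atf3 (0.0998) and Zfp36 (0.0765) did not pass. In the same F test over all 20380 probe sets, Jund (adjusted p = 0.0751) and Jun's second probe set (0.302) did not pass among null embryos. Among wild type embryos 8 of 9 members were called, against 50.1% of all genes. Egr1 was 12th of 7436 genes by F there (adjusted p = 6.12e-12) and Ier2 86th (1.00e-08). Jun (3.61e-06), Fos (5.59e-06), Junb (1.22e-05), Nr4a1 (0.000361), Jund (0.00415) and Zfp36 (0.00528) passed too, and Atf3 (0.320) did not.

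In these wild type calls 1 embryo again weighed most. Without wild type embryo 2 only Ier2 and Zfp36 of the 9 were called (15.1% of all genes), while 7 were called without embryo 1 (45.6% of all genes) and 8 without embryo 3 (37.3%). Among null embryos, leaving out embryo 2 left 3 calls, which were Jun, Junb and Jund (13.2% of all genes), and the other 4 leave-outs gave 5 to 7 (18.8 to 23.2% of all genes). The highest wild type embryo mean was 3.98 times the lowest for Egr1, 3.16 times for Fos and 2.62 times for Ier2, and 1.29 times for Jund. Among null embryos the ratio was 1.40 for Egr1, 1.31 for Fos and 1.37 for Ier2. The SD between cultures of 1 embryo, on the log2 scale, was 0.074 for Egr1, 0.089 for Junb, 0.11 for Jun and Ier2, 0.208 for Fos and 0.299 for Atf3. For Egr1 the SD between wild type embryos was 1.101 and between null embryos 0.174.

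**Figure D3:**
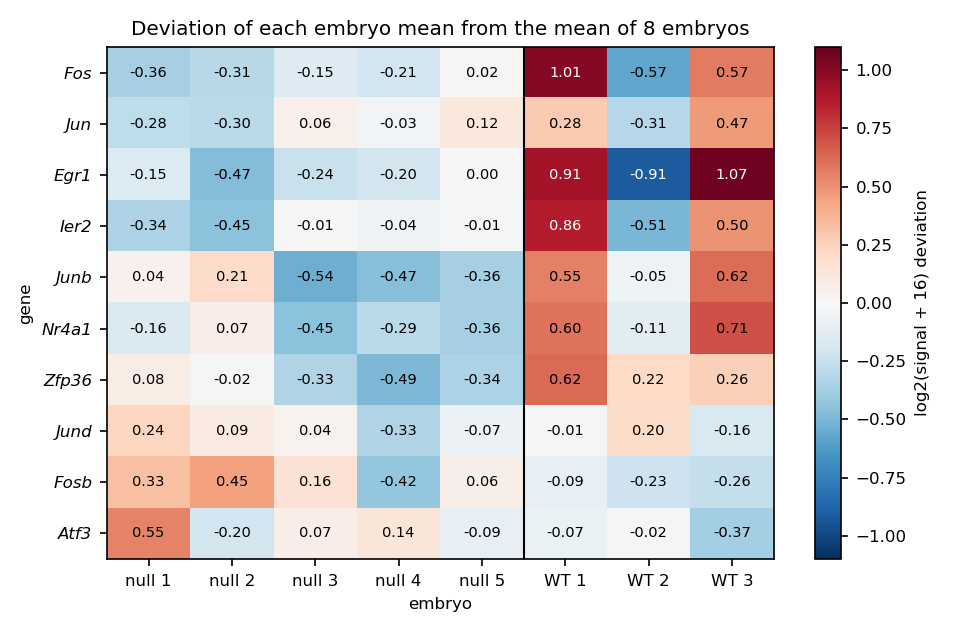
Deviation of each embryo mean from the mean of the 8 embryos, in log2(signal + 16), for the 10 genes (rows) in E2F4 null embryos 1 to 5 and wild type embryos 1 to 3 (columns, divided by the line). Wild type embryos 1 and 3 are high for the upper 7 genes, and null embryos 1 and 2 are the lowest null embryos for Fos, Jun and Ier2 but the highest for Junb, Nr4a1 and Zfp36.

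Co-movement of the members was measured as correlations between their embryo means, over all 45 pairs. Over all 8 embryos r was above 0 in 27 pairs, and 9 pairs passed after Benjamini-Hochberg adjustment of exact permutation p-values. By rank correlation (rho) only Fos with Jun, Fos with Ier2, Jun with Egr1, Jun with Ier2 and Junb with Nr4a1 passed. With genotype means subtracted r was above 0 in 30 pairs and 0 passed, in a test of 720 orders within genotypes. Wild type embryos 1 and 3 stood apart for 7 members. Without the 2 embryos farthest from the median of the first member, r was above 0 in 21 pairs and below 0 in 24, and 0 passed. With 6 embryos the exact test has 720 orders, too few for 1 pair alone to pass after adjustment over 45 pairs. The 9 called pairs all stayed positive there, at r = 0.749 to 0.942. Because wild type embryos 1 and 3 stood apart, single pairs are given over the other 6, a choice made after the data were seen. Over these 6 embryos r was above 0 in 24 pairs and below 0 in 21, and 0 of the 45 pairs passed after the same adjustment. The pairs fell into a pattern that is given as a description, since the sets were picked from it. Within Fos, Jun, Egr1 and Ier2 all 6 pairs were positive (r = 0.677 to 0.963), within Junb, Zfp36 and Nr4a1 all 3 were positive (0.701 to 0.942), and between the sets all 12 were negative (-0.931 to -0.445). Fos and Jun, the partners of AP-1, had r = 0.89 (exact permutation p = 0.00694, adjusted 0.156) and rho = 0.943 (exact p = 0.0167, adjusted 0.188). Jun and Ier2 had r = 0.963 (exact permutation p = 0.0194, adjusted 0.167) and rho = 0.943 (exact p = 0.0167, adjusted 0.188).

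Junb and Nr4a1, whose printed promoters both hold TGACG, had r = 0.942 (exact permutation p = 0.0111, adjusted 0.156) and rho = 0.886 (exact p = 0.0333, adjusted 0.214). Fos, which also holds it, ran the other way against Junb, with r = -0.607 and rho = -0.6 (exact permutation p = 0.207 and 0.242, adjusted 0.404 and 0.453). Over all 8 embryos Fos and Junb had r = 0.627, and a part of the motif in these values was not tested. Ier2 and Nr4a1 had r = -0.897 (exact permutation p = 0.025, adjusted 0.167) and rho = -0.943 (exact p = 0.0167, adjusted 0.188). These 6 embryos hold 5 null and 1 wild type, and 3 low and 3 middle embryos for Ier2, so such values rest largely on 1 split. Both sets were high in wild type embryos 1 and 3.

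**Figure D4:**
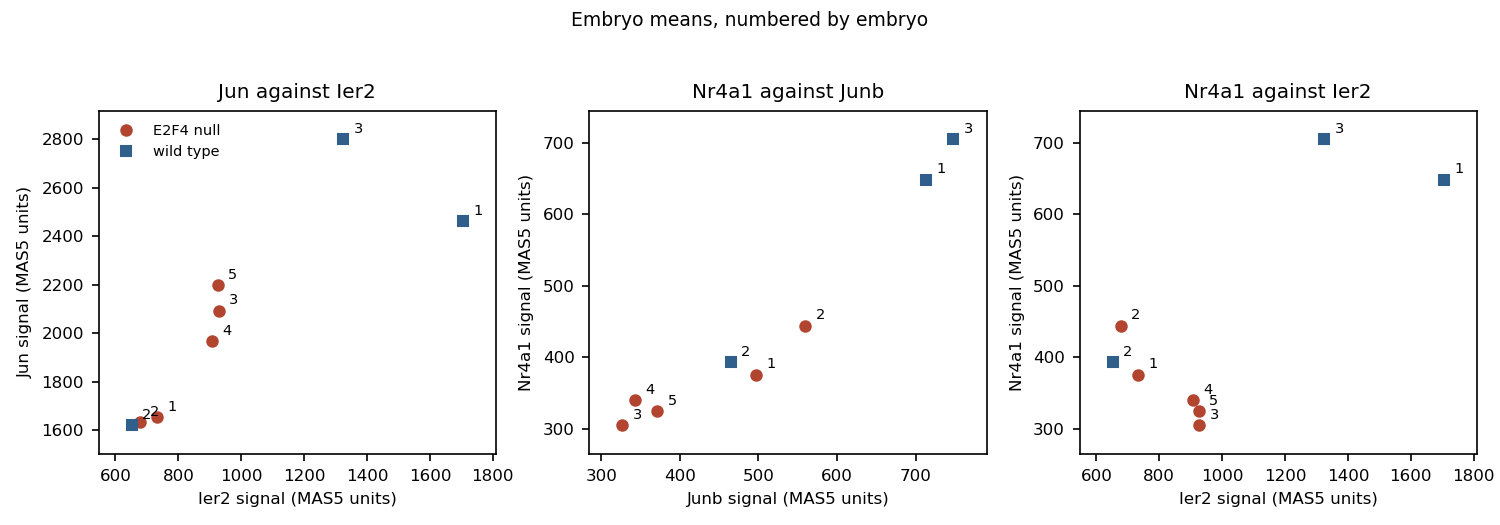
Embryo means of signal (MAS5 units on both axes, not starting at 0) for 3 pairs of genes, with E2F4 null embryos as red circles and wild type embryos as blue squares, numbered by embryo. Wild type embryos 1 and 3 stand apart in each panel. Among the other 6, Jun goes with Ier2 (r = 0.963) and Nr4a1 with Junb (0.942), and Nr4a1 goes against Ier2 (-0.897).

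Between cultures of the same embryo no pair of members passed. Over the deviations of 20 cultures from their embryo means, r was above 0 in 26 of 45 pairs and below 0 in 19, with a median of 0.055 and a range of -0.533 to 0.674, and 0 pairs passed. The highest was Atf3 with Nr4a1, at r = 0.674 (permutation p = 0.0686, adjusted 0.739) and rho = 0.532 (permutation p = 0.104, adjusted 0.765). By likeness to the mean standardized profile of the members over 8 embryo means, the nearest other genes were Hoxa10 (r = 0.968), Nfatc1 (0.95), B230219D22Rik (0.948), Skiv2l (0.947) and Resf1 (0.94). Over the 20 culture deviations they were Crkl (0.889), Asb13 (0.857), Ubtd1 (0.856), Mtss1 (0.834) and Slc25a30 (0.828). The nearest genes thus differed between the scales. Such top values come from a search of all genes tested, and those over 8 embryos include wild type embryos 1 and 3, which stood apart.

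Other genes of the pathway were read from 6 lists, and 0 of their members were called between genotypes. Among other AP-1 and leucine zipper partners 5 of 9 tested were below 0 (median -0.016). Atf4, the effector of the integrated stress response, was at 0.31 (SE 0.08, limma adjusted p = 0.360). Jdp2, a Jun dimer partner that represses AP-1, was at 0.24 (SE 0.07, limma adjusted p = 0.399). In both every null embryo was above every wild type embryo, and the share of all genes with that pattern was not counted. The opposite pattern, all null embryos lower, was found in 3.71% of all genes. Among other immediate early transcription factors 8 of 11 were below 0 (median -0.09). Btg2, an antiproliferative cofactor, had 558.5, 562.5, 371.7, 297.0 and 320.6 in null embryos and 951.6, 717.6 and 625.6 in wild type embryos. Its difference was -0.86 (SE 0.24, adjusted p = 0.360), without overlap, and Klf2, a zinc finger factor, was at -0.54 (SE 0.17, adjusted p = 0.415), also without overlap. Unlike Egr1 and Fos, both had wild type embryo 2 above every null embryo.

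Among other immediate early effectors 13 of 17 were below 0 (median -0.194). The smallest p-values were those of Rgs2, a brake on G protein signalling, at 0.52 (SE 0.14, adjusted p = 0.360), and Ccn1, a matrix protein, at -0.53 (SE 0.16, adjusted p = 0.399). For Rgs2 every null embryo was above every wild type embryo, again a pattern not counted over all genes. Among genes of mRNA decay and MAP kinase feedback 3 of 8 were below 0 (median 0.03). Dusp1, the phosphatase that turns off MAP kinases, was at -0.60 (SE 0.32, adjusted p = 0.656), and wild type embryo 2, the lowest embryo for Egr1, was the highest for it at 2524.7. Dusp6, the ERK phosphatase, was at -0.24 (SE 0.16, adjusted p = 0.703). Among upstream MAP kinases, ternary complex factors and CREB 8 of 12 were below 0 (median -0.082), with the kinases Map2k2 at -0.17 (SE 0.06, adjusted p = 0.462) and Map2k4 at -0.17 (SE 0.10, adjusted p = 0.674).

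Of the AP-1 target genes 8 of 11 were below 0 (median -0.248). Timp1, an inhibitor of matrix proteases, had 7085.8, 7081.1, 5859.8, 5491.6 and 5578.1 in null embryos, against 9346.8, 7490.0 and 9308.6 in wild type embryos. Its difference was -0.49 (SE 0.12, adjusted p = 0.293), without overlap of the groups, and Lif, a cytokine, was at -0.64 (SE 0.22, adjusted p = 0.431). Mmp3, the stromelysin that AP-1 drives, is named after its values were seen, because its embryos ran in much the same order as for Fos. It had 78.8, 86.4, 127.8, 138.5 and 138.7 in null embryos and 418.3, 93.5 and 249.3 in wild type embryos, a difference of -0.87 (SE 0.39, adjusted p = 0.587). Wild type embryos 1 and 3 were its highest, followed by null embryos 5, 4 and 3, with wild type embryo 2 and null embryos 1 and 2 at the bottom. Other genes of the list did not share that order. Plaur and Hmox1 were highest in wild type embryo 2 (1696.1 and 1306.9), and Hbegf in null embryo 1 (3265.1).

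Within genotypes the lists were often called too. Among null embryos the F test called 2 of 9 AP-1 partners, 4 of 11 other transcription factors, 11 of 17 effectors, 4 of 8 feedback genes, 4 of 12 upstream genes and 9 of 11 target genes (22.9% of all genes). Among wild type embryos it called 4, 7, 15, 7, 7 and 9 of them in the same order (50.1% of all genes).

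**Figure D5:**
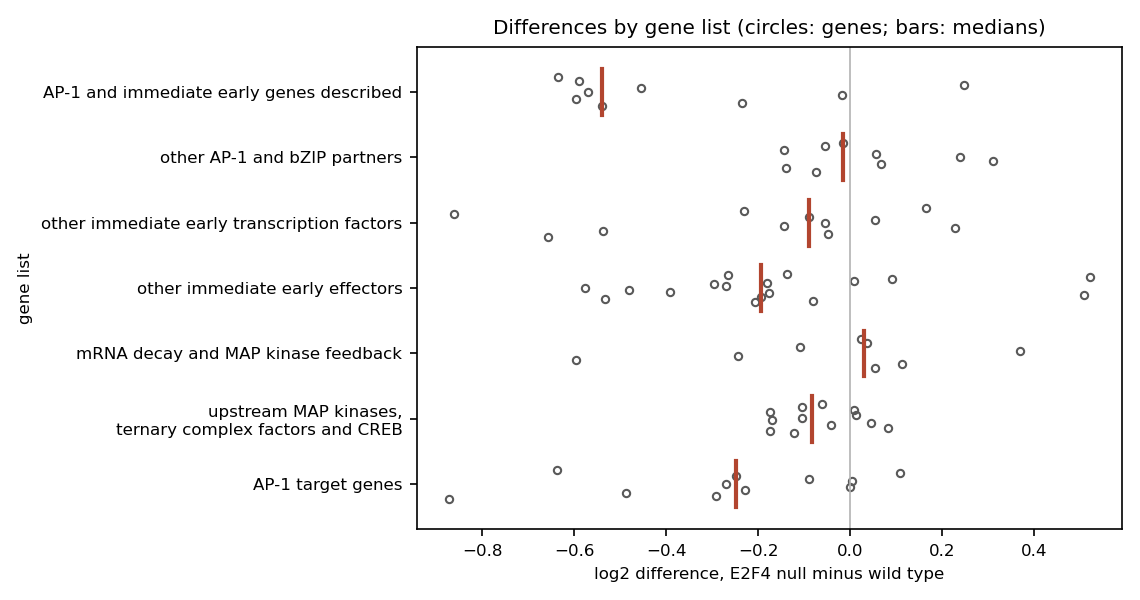
Log2 difference, E2F4 null minus wild type (horizontal axis), of each tested gene (circles) in the set described and in 6 lists of related genes (rows), with the list median as a bar. The median is -0.539 for the set described and lies between -0.248 and 0.03 for the lists.

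Fibroblast markers were all present, and some markers, but not all, moved with the embryos. All 8 fibroblast markers were on the array and passed the filter, and their summed signal was 67680 to 77044 in null embryos and 73755 to 74298 in wild type embryos. Pdgfra, a receptor of fibroblasts, had 197.2, 339.4, 908.0, 1109.6 and 1367.8 in null embryos and 852.1, 191.1 and 1199.5 in wild type embryos. The embryos low for it, null 1 and 2 and wild type 2, were the ones low for Jun and Ier2. Other fibroblast markers followed it in part or not at all. Twist1 was lowest in wild type embryo 2 (433.7) and null embryo 1 (502.0), as was Col3a1 (9487.4 and 10393.5). Thy1 was lowest in null embryos 1 and 2 (2932.7 and 3955.1), and Pdgfrb did not follow it. Vim, an intermediate filament protein, had 25541.3 and 24936.9 in null embryos 1 and 2 and 26401.3 in wild type embryo 2, the highest of the 8 embryos, and the collagen genes Col1a1 and Col1a2 were highest in the same 3. Acta1, an actin of skeletal muscle, ran the other way, with 1149.4, 3143.0, 270.3, 235.1 and 211.1 in null embryos and 608.2, 3869.5 and 369.7 in wild type embryos. It made up most of the skeletal muscle list, which summed to 284 to 3198 in null embryos and 434 to 3944 in wild type embryos. The other 3 muscle markers were near background in every embryo (Myog at most 33.2, Myod1 at most 30.3, Ckm at most 47.8). Of the neural and epithelial markers, Nes and Krt18 followed that split too. Nes, a neural progenitor filament, had 729.9, 730.8, 297.9, 334.4 and 250.4 in null embryos and 337.6, 569.0 and 154.8 in wild type embryos. Krt18, an epithelial keratin, had 213.4, 206.4, 108.5, 110.1 and 102.8 in null embryos and 93.9, 193.5 and 60.7 in wild type embryos. The other neural and epithelial markers did not set these embryos apart from the rest. Gap43, for one, had 265.4 and 145.6 in null embryos 1 and 2 and 166.4 in wild type embryo 2. The part of these markers in the results was not tested.

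Macrophage and leukocyte markers, all 8 on the array and tested, summed to 1329 to 4524 in null embryos and 1670 to 2579 in wild type embryos, with Csf1r at 252.9 to 648.7 and Lyz2 at 554.7 to 2508.8 over the 8 embryos. All 8 had log2 differences above 0 (median 0.33), 0 were called, and their part in the results was not tested. Epithelial markers (5, of which 2 were tested) summed to 400 to 737 in null embryos and 313 to 554 in wild type embryos, with Epcam at most 12.8 and Cdh1 at most 15.4. Endothelial markers (4, of which 0 were tested) summed to 73 to 103 and 77 to 119 in null and wild type embryos, with Pecam1 at most 16.2. Neural markers (4, all tested) summed to 1732 to 2521 and 1782 to 2175, and erythroid markers (2 on the array, 0 tested) to 4 to 19 and 10 to 17, in null and wild type embryos.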

How the data were processed

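The deposited series table holds 1 signal intensity per probe set and array, made by the authors with MAS5 per the submitters' processing notes, on a linear scale. Its version and scaling target are not named there, and detection calls were not used here. MAS5 scaling hides a change shared by all genes, and the number of arrays limits the precision. Following the design text, titles were taken to number the embryo first and then the culture. Where nothing says otherwise, litters may be shared, so the genotype p-values measure the spread between these embryos. Those of the F test within a genotype set embryos against the spread between cultures of 1 embryo.

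Of 22690 probe sets, 64 were controls, 20380 others had 1 symbol in the platform annotation and 691 several. Symbols were updated through the RefSeq gene table, where 20351 matched. Intensities were converted to log2(signal + 16), which understates the change of low genes, and averaged per embryo. The brightest probe set stood for its gene, and genes under the 40th percentile (signal 80.2) were dropped, leaving 7436 of 12393. Genotypes were compared with limma 3.58.1 (R 4.3.3, trended eBayes, two-sided test of null minus wild type), and embryos within a genotype with limma's F test over cultures, both with Benjamini-Hochberg adjustment over all genes and a threshold of 0.05. Correlations had exact two-sided permutation tests, with p-values adjusted over 45 pairs in scipy 1.17.1. There were 40320 orders of 8 embryos, 720 of 6 embryos, 720 within genotypes and 27648 within embryos for cultures. The fits were tested on simulated data.

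The members and lists were chosen with earlier results of these data known. Named genes were all members, E2f4, the 2 genes of smallest p in each pathway list without a call, and the 5 genes most like the members, while Mmp3, Tmem223 and the markers given by embryo (such as Pdgfra, Acta1, Vim, Nes and Krt18) were added after their values were seen. Alternatives covered pseudocounts of 4 and 64, other filters and scalings, every probe set, blocks, and each embryo left out.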

Additional observations from a re-analysis of the deposited data

How the results depend on the processing

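Between genotypes 1 gene was called over all genes. The count was 0 with every probe set tested, 0 with cultures 1 and 2 only, 80 with cultures as samples and the embryo as a random block, and 0 to 11 when single embryos were left out, with the 11 reached without wild type embryo 2. Of the members, 0 were called. With the embryo as a random block 2 were, Junb (-0.60, adjusted p = 0.0416) and Zfp36 (-0.59, adjusted p = 0.0406), and leaving out single embryos gave 0 to 1. Embryo numbers were not taken as pairs, since the labels tie no numbers across genotypes. The deviations of same-numbered embryos correlated at 0.064, 0.633 and 0.447 for numbers 1, 2 and 3. Only the first was near 0, and whether same-numbered embryos shared anything was not tested. The embryo number as a replicate block called 0 genes, and the culture number as a replicate block beside a random embryo block called 38, and neither called a member.

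Of the tested members' differences, 8 kept their sign in every alternative. Jund, at -0.02, turned to 0.016 with quantile normalization, 0.11 with the embryo number as a replicate block, and -0.10 to 0.080 without single embryos. Calls between embryos numbered 3 to 7 of 9 for null and 2 to 8 of 9 for wild type when single embryos were left out, beside 13.2 to 23.2% and 15.1 to 45.6% of all genes. The pairs with positive r numbered 24 to 30 of 45 over embryos and 22 to 28 over cultures in these alternatives, and 21 over embryos without the 2 farthest from the median. No array had control ratios beyond 3 scaled deviations, so that alternative gave no value. The 3 wild type embryos and low signals such as those of Fosb limit what can be seen. The cause of these shifts was not tested.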
